A study of Rattus norvegicus with 36 samples.

Results

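Genes that mark how a neuron makes or loads its transmitter, 5 of the 32623 Ensembl identifiers counted, were followed across prefrontal cortex (PFC) and nucleus accumbens (NAc) of rats sorted by choice behaviour. They were chosen by identity and not by measured value, though with earlier results of these data known. Gad1 (ENSRNOG00000000007) and Gad2 (ENSRNOG00000018200) encode the enzymes that make GABA from glutamate. Slc32a1 (ENSRNOG00000015393) encodes the vesicular transporter that loads GABA. Slc17a7 (ENSRNOG00000020650) and Slc17a6 (ENSRNOG00000016147) encode the vesicular glutamate transporters VGLUT1 and VGLUT2. All 5 had enough counts to be tested in each comparison.

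The study trained rats of the strain given as Sparague Dawley on a touch screen version of the rat gambling task (rGT), in which each light signal carries its own reward and punishment odds, and classed each rat as risk-averse or risk-seeking once its choices were stable. PFC (the medial part, per the labels' protocols) and NAc were dissected after decapitation, and total RNA of 19 rats gave 36 libraries. Each of the 4 groups (PFC risk-averse, PFC risk-seeking, NAc risk-averse, NAc risk-seeking) held 9 libraries from separate rats. The p-values of tests within a region therefore measure the spread between animals and their dissections. Both regions were sequenced for 17 rats, while N9 gave a NAc library alone and R6 a PFC library alone. The main region and interaction tests treated the 36 libraries as independent and did not use this pairing, which entered an alternative run. Every animal had been trained, and no untrained animal was among the samples used here. Age was not given in the sources used here. A library held between 18436025 and 34761269 counts on genes.

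In the rodent cortex most neurons are excitatory pyramidal cells that load glutamate with VGLUT1, and a minority are GABA interneurons. The NAc, the ventral part of the striatum, is made up mostly of spiny projection neurons that release GABA, while its glutamate comes from axons whose cell bodies, and so most of whose mRNA, lie in cortex, hippocampus, amygdala and thalamus. VGLUT2 is typical of thalamic and other subcortical glutamate neurons and is expressed in few cells of the adult cortex. A bulk library sums all cells of a dissection, so fewer cells of a type and less RNA per cell cannot be told apart.

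The 250 bases before the annotated start of the 3 GABA genes and of Slc17a7 are shown because the first 3 were lower together in PFC and Slc17a7 differed most in the opposite direction. They are RefSeq sequences on the GRCr8 build, plus strand: chr3:75777202-75777451 for Gad1, chr17:89671468-89671717 for Gad2, chr3:167686995-167687244 for Slc32a1 and chr1:104785955-104786204 for Slc17a7. Capitals mark the TATA box letters TATAAA, the box with the letters CCAAT (seen as ATTGG where it lies on the minus strand), and the GC box letters GGGCGG (seen as CCGCCC where they lie on the minus strand).
Gad1: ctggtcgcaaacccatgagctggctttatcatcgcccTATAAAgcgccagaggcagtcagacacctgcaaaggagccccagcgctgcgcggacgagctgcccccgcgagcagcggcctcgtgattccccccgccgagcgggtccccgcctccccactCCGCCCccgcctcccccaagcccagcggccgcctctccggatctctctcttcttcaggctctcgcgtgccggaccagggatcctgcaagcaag
Gad2: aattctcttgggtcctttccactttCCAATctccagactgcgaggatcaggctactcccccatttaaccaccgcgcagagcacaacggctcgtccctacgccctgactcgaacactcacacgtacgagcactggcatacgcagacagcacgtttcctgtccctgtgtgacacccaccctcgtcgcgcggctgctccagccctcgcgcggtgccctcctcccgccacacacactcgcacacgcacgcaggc
Slc32a1: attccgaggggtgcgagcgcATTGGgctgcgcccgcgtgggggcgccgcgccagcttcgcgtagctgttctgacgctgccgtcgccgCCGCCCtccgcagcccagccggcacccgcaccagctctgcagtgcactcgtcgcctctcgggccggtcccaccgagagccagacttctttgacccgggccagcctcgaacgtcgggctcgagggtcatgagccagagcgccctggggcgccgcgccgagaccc
Slc17a7: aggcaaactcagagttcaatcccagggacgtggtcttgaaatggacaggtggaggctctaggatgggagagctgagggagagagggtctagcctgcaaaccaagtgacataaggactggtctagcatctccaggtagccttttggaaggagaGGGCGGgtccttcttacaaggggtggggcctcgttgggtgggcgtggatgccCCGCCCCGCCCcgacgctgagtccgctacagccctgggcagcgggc

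All 5 genes matched the RefSeq promoter table by symbol. Over its 300-base windows, which add the 50 bases after the start, GC content was 67.7% for Gad1, 63.7% for Gad2, 73.7% for Slc32a1, 64.7% for Slc17a7 and 49% for Slc17a6, against a median of 51.7% over 33469 promoters. CpG dinucleotides numbered 26, 29 and 42 in the GABA genes in that order, 17 in Slc17a7 and 11 in Slc17a6, against a median of 7. Slc32a1 therefore had the most CpG of the 5, and Slc17a6 the fewest. TATAAA was found in Gad1 alone of the 5 and in 14.2% of all promoters. CCAAT was found once each in Gad2 and Slc32a1 and in 37.5% of all promoters. GGGCGG was found once each in Gad1 and Slc32a1 and 3 times in Slc17a7, where 2 of the matches overlap, and in 33.1% of all promoters. The E-box letters CANNTG were found once in Gad1 and 2 times each in Slc17a7 and Slc17a6, and in 72.1% of all promoters. TAATTA, the core read by many homeobox factors, was in none of the 5 windows and in 5.36% of all promoters. A match is a description of the letters, and no match says only that the letters are not in the window.

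The 3 GABA genes were lower in PFC than in NAc and both glutamate transporter genes were higher. The level of each gene is given as CPM (a gene's counts scaled to a fixed library total, with TMM factors over all libraries), a scale that does not correct for gene length and so is not used to rank one gene against another. All 5 members passed the region test (adjusted p under 0.05, edgeR quasi-likelihood test over all genes), as did 77.3% of the 15936 genes tested, 38% higher and 39.3% lower in PFC. The median log2 fold change over all genes tested was -0.005, and the median size of a change was 0.325. The share of genes called was thus so high that the call itself sets the members little apart, and the sizes are given with it. Whether the ranges of the regions overlap is also given for each member. How many of all genes tested had no overlap was not counted, so such separation is not read as particular to the members.

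Gad1, whose enzyme GAD67 is found throughout the neuron, lay between 718 and 951 CPM in the 18 NAc libraries, with a median of 805. In the 18 PFC libraries it lay between 266 and 333 CPM, with a median of 297. The regions did not overlap, and Gad1 was 2.73-fold lower in PFC (log2 fold change -1.45 ± 0.04 SE, adjusted p = 2.11e-30, n = 18 and 18).

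Gad2, whose enzyme GAD65 is concentrated at nerve terminals, ran from 803 to 1328 CPM in NAc, median 1150, and from 232 to 301 CPM in PFC, median 269. Again no PFC library reached the lowest NAc library, that of B3. Gad2 was 4.26-fold lower in PFC (log2 fold change -2.09 ± 0.05 SE, adjusted p = 2.09e-31).

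Slc32a1, whose transporter loads GABA and glycine into vesicles, ran from 334 to 494 CPM in NAc, median 409, and from 81.0 to 109 CPM in PFC, median 103. It was 4.07-fold lower in PFC (log2 fold change -2.02 ± 0.05 SE, adjusted p = 9.09e-32), with no overlap between regions. The 3 GABA genes were thus separated by region in every library, and their SD within a region was at most 12.8% of the mean.

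Slc17a7, the main glutamate transporter gene of cortical pyramidal cells, lay between 1771 and 2492 CPM in PFC, median 2284. In NAc it ran from 2.23 to 322 CPM, median 105. It was 15.7-fold higher in PFC (log2 fold change 3.97 ± 0.37 SE, adjusted p = 6.06e-12), the rank of 88 from the most raised of all genes tested, with no overlap between regions. The size of this fold rested on the method: the log2 value was 4.64 by limma-voom and 3.79 without the NAc libraries of B2 and R1 (adjusted p = 5.69e-12 and 6.91e-17).

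Slc17a6 ran from 10.8 to 19.6 CPM in PFC, median 14.1, and from 2.33 to 9.10 CPM in NAc, median 5.77. It was 2.36-fold higher in PFC (log2 fold change 1.24 ± 0.13 SE, adjusted p = 1.26e-10). The regions did not overlap, although the lowest PFC library, that of B2 at 10.8 CPM, stood close above the highest NAc library, that of R2 at 9.10 CPM. Its lowest value rested on 72 counts.

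**Figure D1:**
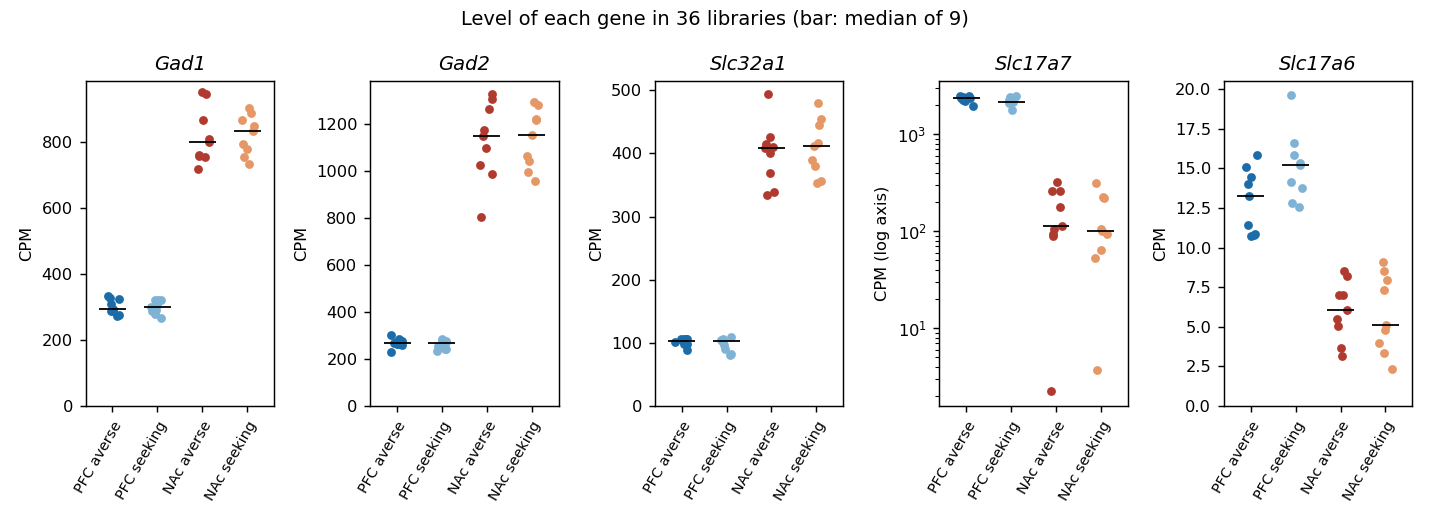
Level of each of the 5 genes in CPM in the 36 libraries, 9 per group, 1 point per library; the bar is the group median, the axis is linear from 0 except for Slc17a7, whose axis is logarithmic. The regions separate for every gene, the risk-averse and risk-seeking points of a region overlap, and the NAc points of Slc17a7 spread from 2.23 to 322 CPM.

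The balance of the GABA genes to each other also differed by region, as a ratio of CPM read only between libraries. Gad1 over Gad2 was 0.732 ± 0.0723 in NAc and 1.13 ± 0.0970 in PFC (SD, n = 18 each). The ranges met at 1 point, since the NAc library of B3 was at 0.945 and the PFC library of B9 at 0.936. Slc32a1 over Gad1 was 0.494 ± 0.0446 in NAc and 0.332 ± 0.0244 in PFC, from 0.427 to 0.589 and from 0.292 to 0.392, with no overlap. Slc32a1 over Gad2 was 0.361 ± 0.0437 and 0.376 ± 0.0401, and these ranges overlapped widely. Gad1 therefore stood apart from the other GABA genes in falling less from NAc to PFC, and Gad2 and Slc32a1 kept about the same proportion. These ratios were described and not tested.

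The log2 ratio of Slc17a7 to the summed GABA genes summarised the contrast of each library. It was 1.76 ± 0.13 in PFC and -4.70 ± 1.98 in NAc (SD, n = 18 each). The PFC libraries lay within 1.53 to 2.03, while the NAc libraries ran from -9.95 in B2 to -2.83 in N7. No library of one region came near the range of the other.

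Risk preference was next compared within each region, which asks whether the groups that differ in choice differ in these genes. None of the 5 members passed in either region. In PFC 23.3% of the 15128 genes tested passed, and in NAc 0% of 15418 by edgeR, where 2748 genes had an unadjusted p under 0.05, DESeq2 called 566 and limma-voom 0.

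Gad1 in PFC had a lowest, median and highest value of 273, 295 and 333 CPM in the risk-averse rats and of 266, 299 and 322 CPM in the risk-seeking rats. The groups overlapped almost fully, and the log2 fold change of risk-seeking over risk-averse was -0.02 ± 0.05 SE (edgeR adjusted p = 0.791). In NAc the values were 718, 799 and 951 CPM against 734, 835 and 904 CPM, with a log2 fold change of 0.00 ± 0.06 SE (edgeR adjusted p = 0.997).

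Gad2 in PFC was at 232, 269 and 301 CPM in risk-averse and 232, 269 and 284 CPM in risk-seeking rats (log2 fold change -0.05 ± 0.05 SE, edgeR adjusted p = 0.541). In NAc it was at 803, 1147 and 1328 CPM and at 958, 1153 and 1296 CPM (0.01 ± 0.08 SE, edgeR adjusted p = 0.976). The medians of this gene differed by far less than its range in both regions.

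Slc32a1 in PFC was at 89.5, 104 and 107 CPM in risk-averse and 81.0, 103 and 109 CPM in risk-seeking rats (log2 fold change -0.08 ± 0.06 SE, edgeR adjusted p = 0.374). The lowest risk-averse library was that of B2 and the lowest risk-seeking library that of B9, and the groups overlapped. In NAc it was at 334, 409 and 494 CPM and at 353, 413 and 479 CPM (0.03 ± 0.07 SE, edgeR adjusted p = 0.869).

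Slc17a7 in PFC was at 1949, 2341 and 2492 CPM in risk-averse and 1771, 2174 and 2478 CPM in risk-seeking rats. The groups overlapped, and the log2 fold change was -0.07 ± 0.06 SE (edgeR adjusted p = 0.386). In NAc it was at 2.23, 113 and 322 CPM and at 3.72, 101 and 316 CPM. Each NAc group held 1 library far below its others, and the log2 fold change was -0.27 ± 0.65 SE (edgeR adjusted p = 0.865). That SE was more than any other member had in a preference comparison, so the precision for Slc17a7 in NAc was low.

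Slc17a6 in PFC was the member nearest the threshold. It was at 10.8, 13.2 and 15.9 CPM in risk-averse and 12.6, 15.2 and 19.6 CPM in risk-seeking rats. The groups overlapped, B9 being the one risk-seeking library well above all the rest. The log2 fold change was 0.21 ± 0.09 SE with an edgeR unadjusted p of 0.0358 and an adjusted p of 0.107. Without single libraries it ran from 0.15 to 0.25 with edgeR adjusted p from 0.0687 to 0.228. Over 11 other alternative runs it ran more widely, from 0.085 to 0.292, and passed in 0 of them. The lowest was without the 4 animals with most unassigned reads (edgeR adjusted p = 0.695). The highest was with the ambiguous share as a covariate (edgeR adjusted p = 0.761). In NAc it was at 3.18, 6.05 and 8.50 CPM and at 2.33, 5.11 and 9.10 CPM (log2 fold change -0.05 ± 0.24 SE, edgeR adjusted p = 0.932).

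**Figure D2:**
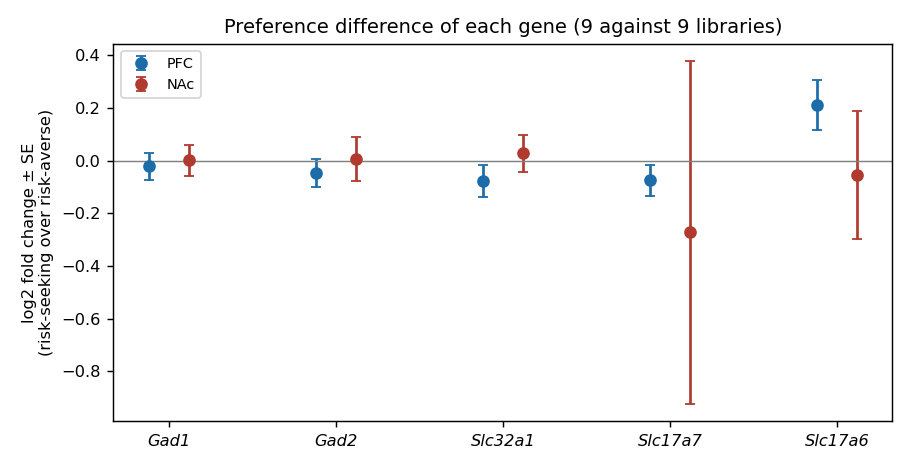
Log2 fold change of risk-seeking over risk-averse rats for each gene within PFC and within NAc, 9 against 9 libraries each; the bars are the standard error of the edgeR fit. No gene passed the test in either region, and the widest bar is that of Slc17a7 in NAc, 0.65.

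The difference in preference effect between the regions was tested as an interaction. No member passed, and 0% of the 15936 genes tested passed by edgeR, with 387 at an unadjusted p under 0.05. The interaction was 0.20 ± 0.66 SE for Slc17a7 (adjusted p = 0.983) and 0.27 ± 0.27 SE for Slc17a6 (adjusted p = 0.981) on the log2 scale. By mean CPM the order of the 4 groups was NAc risk-seeking, NAc risk-averse, PFC risk-averse and PFC risk-seeking for the 3 GABA genes, and PFC before NAc for both transporters. Neighbours of one region did not pass the test for any member. The nearest to it were the PFC groups of Slc17a6, at 12.9 ± 2.02 CPM in risk-averse and 15.1 ± 2.18 CPM in risk-seeking rats (SD, n = 9 each).

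The genes were then used to judge how much of one dissection could lie in the other. If NAc tissue itself made no Slc17a7, a NAc library's level as a percent of the PFC mean would estimate its share of RNA with the PFC makeup. Any Slc17a7 made in NAc tissue would put the share below this percent, so the percent is read as a ceiling. This percent was 6.39 ± 4.42 (SD, n = 18), with a median of 4.63. It was 0.0986% in B2 and 0.165% in R1, and 2.35% in N3, the next lowest. It then rose through 2.83% in N1 and 3.98% in N6 to 7.83% in R9, 9.76% in B5, 10.0% in BR5, 11.4% in B3, 11.5% in R7, 14.0% in R2 and 14.2% in N7.

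B2, with 66 counts of Slc17a7, and R1, with 115, stood apart from the other NAc libraries, while N7 had 10866 counts. The spread was 144-fold from lowest to highest in NAc and 1.41-fold in PFC. The 2 lowest were from 1 rat of each preference group. By the letters that open the animals' codes, the percent ran from 0.0986 to 11.4 in B, 4.09 to 10.0 in BR, 2.35 to 14.2 in N and 0.165 to 14.0 in R, so all 4 sets overlapped. What the letters stand for was not given in the sources used here. By preference it was 6.97 ± 4.58 in risk-averse and 5.81 ± 4.45 in risk-seeking rats (SD, n = 9 each). B2 in NAc also had the highest share of reads assigned to no gene of all libraries, 33.0%, while R1 had 26.0%, within the range of the others; the part of this share in the result was not tested.

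A second ceiling was taken from genes that are not members. For each library, the 20 genes with the largest fold between regions and at least 10 CPM in the other region were chosen without that animal, and the median of their percents was used. Over NAc libraries it ran from 0.925% in R1 and 0.960% in B2 to 4.19% in N7, median 2.35%. Slc17a7 lay above this ceiling in every NAc library but those of B2 and R1, where it lay below. In N7, where Slc17a7 was at 14.2% of its PFC mean, 66 of the 9897 genes with at least 10 CPM in PFC were at a lower percent than Slc17a7, and in B2 there were 3. The median is not the lowest ceiling that these genes give. The lowest of the 20 genes was at 0.783% or less in every NAc library, and at 0.248% in N7. The highest of the 20 was at 4.60% to 10.3% over the NAc libraries, so the genes of the set did not give 1 common percent within a library. In B2 the highest was at 7.85%, against 0.0986% for Slc17a7. Whether Slc17a7 RNA in NAc came from the PFC dissection was not tested. The ceiling depends on how many genes are used: its NAc median was 1.27% with 10 genes and 4.58% with 50.

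Slc17a6 gave no close ceiling, at 16.6% in R1 to 64.9% in R2 of its PFC mean, median 41.2%. The ratio of Slc17a7 to Slc17a6 ran from 0.702 in B2 and 1.60 in R1 up to 42.9 in R7 within NAc, and from 111 to 231 in PFC. Every NAc library thus held Slc17a6 in larger proportion to Slc17a7 than any PFC library did. The 2 NAc libraries of lowest Slc17a7 were also the 2 of lowest Slc17a6, at 3.18 and 2.33 CPM.

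**Figure D3:**
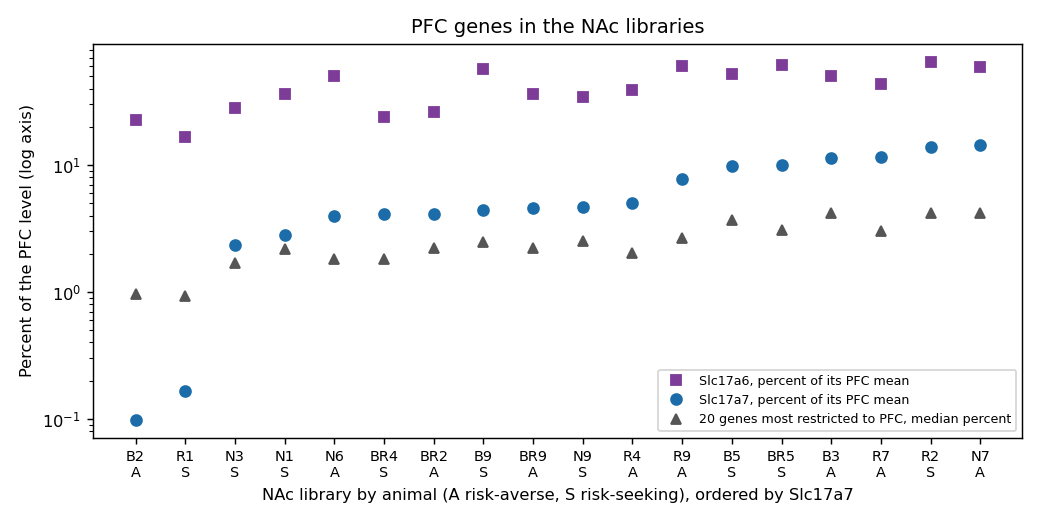
Slc17a7 (circles), Slc17a6 (squares) and the median of the 20 genes most restricted to PFC (triangles) in each of the 18 NAc libraries, as a percent of the PFC mean on a logarithmic axis; libraries are ordered by Slc17a7 and lettered A for risk-averse and S for risk-seeking. Slc17a7 runs from 0.0986% in B2 to 14.2% in N7, and lies above the triangles except in B2 and R1.

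The opposite direction was narrower. The ceiling from the 20 genes most restricted to NAc ran from 0.468% in BR9 to 1.20% in R4 over the PFC libraries, median 0.869%. Here too the median is not the lowest ceiling that the genes give. The lowest of the 20 genes was at 0% in every PFC library, and the highest at 2.32% to 3.87%. The ceiling from the median was 0.741 ± 0.211 in risk-averse and 0.957 ± 0.0955 in risk-seeking rats (SD, n = 9 each), with overlapping ranges and no test. The GABA genes in PFC were at 36.6% (Gad1), 23.5% (Gad2) and 24.6% (Slc32a1) of their NAc means, far above that ceiling in every library. The lowest of these were 32.4%, 20.5% and 20.01%.

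Across the 18 NAc libraries, log2 CPM of Slc17a7 followed the log2 ceiling from the non-member genes, with Pearson r = 0.928 and Spearman rho = 0.936 (permutation p = 1e-05 for both, the smallest the 100000 resamples can give; adjusted p = 1e-04 over 10 tests). Without the 2 libraries farthest from the median ceiling, which were B2 and R1, r was 0.918. Slc17a6 followed it with r = 0.830 and rho = 0.789 (permutation p = 3e-05 and 0.00018, adjusted p = 0.00015 and 0.0009), and r = 0.695 without those 2. Both transporter genes and the PFC-restricted genes thus rose and fell together over NAc libraries. The points share the library and its scaling.

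No relation of a GABA gene with the ceiling passed over all 18 libraries (r = 0.04 for Gad1, -0.33 for Gad2 and 0.07 for Slc32a1; permutation p = 0.884, 0.189 and 0.778). Spearman's rho over the 18 was -0.15, -0.37 and -0.18 in that order (permutation p = 0.545, 0.126 and 0.465). Without B2 and R1, r was -0.60, -0.55 and -0.53 over 16 libraries (permutation p = 0.0159, 0.028 and 0.0363, adjusted p = 0.0265, 0.035 and 0.0363 over 5 tests). Spearman's rho over those 16 was -0.64, -0.54 and -0.59. Leaving out 2 more libraries, the farthest of the 16 from the median ceiling, gave r of -0.54, -0.41 and -0.40. The size of r also moved with the number of genes in the ceiling. Without the 2 farthest of the 18 libraries, r was -0.51, -0.42 and -0.34 with 10 genes and -0.28, -0.52 and -0.41 with 50. The tests over 16 libraries were added after the values were seen. With them, B2 and R1 combined the lowest ceiling with the lowest Gad1 of the 18, at 718 and 734 CPM, and the sign of Pearson's r for Gad1 and Slc32a1 turned on those libraries while the sign of rho did not.

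**Figure D4:**
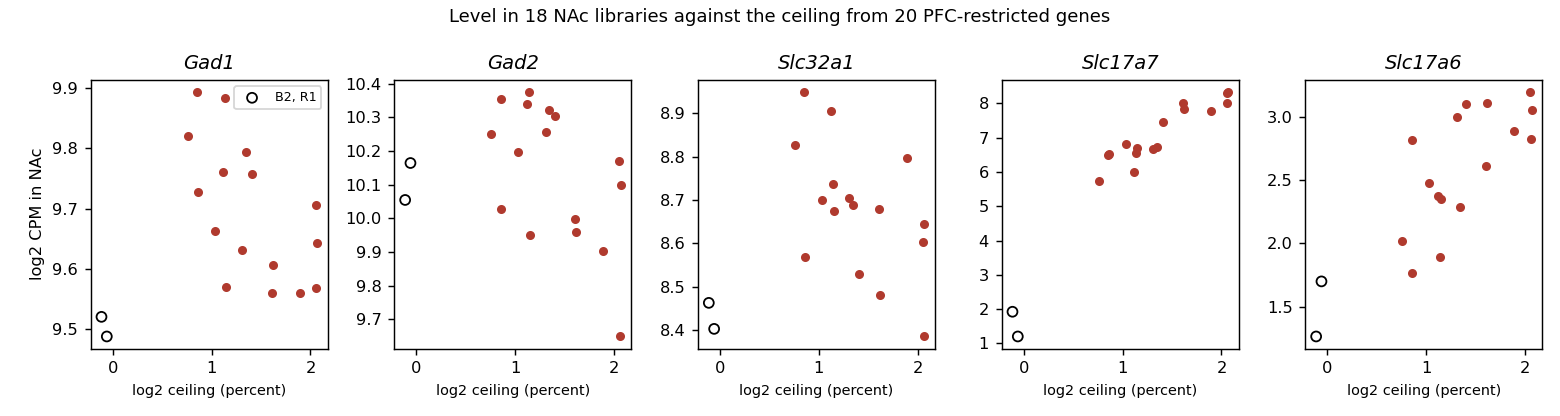
Log2 CPM of each gene in the 18 NAc libraries against the log2 ceiling, in percent, from 20 genes restricted to PFC; open circles are B2 and R1. Slc17a7 (r = 0.928) and Slc17a6 (r = 0.830) rise with the ceiling. Over the 16 filled points r is -0.60 for Gad1, -0.55 for Gad2 and -0.53 for Slc32a1.

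In PFC no relation of a member with the ceiling from NAc-restricted genes passed. The nearest was Slc17a6 (r = 0.520, rho = 0.445, permutation p = 0.0273 and 0.0666, adjusted p = 0.091 and 0.222), with r = 0.496 without the 2 farthest libraries. As deviations from the preference group means its r was 0.325.

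The members were also compared with each other within a region, over 20 pairs. In NAc Slc17a7 and Slc17a6 rose together (r = 0.792, rho = 0.777, permutation p = 3e-05 and 0.00022, adjusted p = 6e-04 and 0.0022). This held at r = 0.712 without the 2 libraries of lowest Slc17a7. Gad1 and Gad2 rose together (r = 0.716, rho = 0.781, permutation p = 0.00074 and 0.0002, adjusted p = 0.0074 and 0.0022; r = 0.632 without the 2 farthest libraries). Gad1 and Slc32a1 passed by Pearson's r but not by Spearman's rho (r = 0.619, rho = 0.591, permutation p = 0.00632 and 0.0111, adjusted p = 0.0316 and 0.074), and without B2 and R1 r was 0.490 (permutation adjusted p = 0.078). Over all 18 libraries no GABA gene passed with Slc17a7. There r was 0.25 for Gad1, -0.19 for Gad2 and 0.25 for Slc32a1 (permutation adjusted p = 0.636 for each over 20 pairs). Spearman's rho was -0.16, -0.40 and -0.21 in that order. Without B2 and R1, in the run added after the values were seen, each GABA gene ran against Slc17a7. Over those 16 libraries r was -0.61 for Gad1, -0.57 for Gad2 and -0.60 for Slc32a1 (permutation adjusted p = 0.028, 0.0363 and 0.028 over 10 tests).

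In PFC the relation of Gad1 and Gad2 did not pass (r = 0.228, rho = 0.205, permutation p = 0.362 and 0.411). Gad1 and Slc32a1 passed by r alone (r = 0.631, rho = 0.546, permutation p = 0.00415 and 0.0209, adjusted p = 0.0277 and 0.0836; r = 0.529 without 2). Slc32a1 and Slc17a7 likewise passed by r alone (r = 0.591, rho = 0.430, permutation p = 0.0117 and 0.0748, adjusted p = 0.0468 and 0.249), and r was 0.346 without the 2 farthest libraries, so that relation rested on them. A rat high in one region was not shown to be high in the other for any member over the 17 rats with both regions. By Pearson's r the highest of these was Gad1 (r = 0.551, rho = 0.463, permutation p = 0.0223 and 0.0614, adjusted p = 0.112 and 0.154 over 5 tests; r = 0.489 without 2). By rho it was Slc17a6 (r = 0.421, rho = 0.468, permutation p = 0.0915 and 0.0597, adjusted p = 0.199 and 0.154; r = 0.261 without 2).

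The genes most like each member were sought over 36 libraries as the highest Pearson r of log2 CPM, in deviations from the 4 group means, among 13989 genes. Slc17a7 had the closest followers, ENSRNOG00000026055 at r = 0.990 and ENSRNOG00000028417 at r = 0.985. That likeness lay in NAc, where r was 0.994 and 0.988, while within PFC it was 0.310 and 0.496. The first was at 116 CPM in PFC and from 0.0874% to 13.0% of that over the NAc libraries, lowest in B2 as Slc17a7 was. For the other members the highest r was 0.694 (Gad1), 0.800 (Gad2), 0.845 (Slc32a1) and 0.847 (Slc17a6). Within NAc, 22 genes followed Slc17a7 at r of at least 0.9, and all 22 had a higher mean in PFC, 21 of them at least 2-fold. Among all genes considered, 50.7% were higher in PFC and 6.97% at least 2-fold higher. Slc17a7 was at 2.23 and 3.72 CPM in the NAc libraries of B2 and R1, and at 53.2 CPM in N3, the next lowest. The r of these followers without B2 and R1 is not given here, so how far it rests on them is not known. These correlations are over libraries that share depth and dissection and carry no test, and the symbols of the followers were not paired with their identifiers in the files.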

How the data were processed

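Total RNA was extracted with miRNeasy and made into TruSeq RNA v2 libraries, read as 101-bp paired ends on a NovaSeq instrument, per the labels' protocols. Listed tools and builds are STAR 2.5.3a, HTSeq 0.9.0, Trimmomatic, edgeR, Rnor_6.0 and rn6, per the submitters' processing notes. The release of the annotation is not given in the sources used here, nor is the strandedness of counting, and without strand a gene cannot be separated from an antisense or overlapping partner. The authors deposited whole-number counts per gene, not normalised. The 5 HTSeq summary categories were kept out of library sizes and tests, and 6713 identifiers were at 0 in every library. Over the 144 pairs of libraries within a group, the chi-square of the counts per degree of freedom was 6.62 to 42.2, well over sampling noise, and every library was used as its own sample.

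All genes that filterByExpr kept entered edgeR's quasi-likelihood test (version 4.0.16 in R 4.3.3, TMM factors, robust=TRUE), with Benjamini-Hochberg adjustment over all genes tested and a threshold of 0.05. The region test used all 36 libraries with preference as a covariate, each preference test the 18 libraries of its region, and the interaction all 36. SE was taken as the size of the log2 fold change divided by the root of its F statistic. Log2 CPM used a prior count of 2. Correlations used two-sided permutation tests (100000 resamples, scipy 1.17.1). The scripts were tested on simulated data. Alternatives were DESeq2 1.42.0, limma 3.58.1 (voom), RLE factors, other filters, read-category covariates, title code letters, and leaving out libraries.

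Titles pair the regions of 17 animals. Their deviations from the group means correlated at 0.129 to 0.550, and for 16 of the 17 the best match of the NAc library was its own animal's PFC library.

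The 5 genes and all lists were chosen with earlier results of these data known. All 5 were named in every comparison whatever their result, and for likeness the 2 genes of highest r for each. The symbols come from stated pairs of identifier and symbol. As 0 other identifiers could be matched to the gene table, which holds no Ensembl identifiers, the lists of GABA and glutamate pathway genes and of cell type markers, and with them the check of the tissue labels against other markers, were not analysed here. Leaving out the NAc libraries of B2 and R1 was added after the data were seen.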

Additional observations from a re-analysis of the deposited data

Results flagged for a closer look

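Of 30 sets of 9 libraries examined for a single library far from the rest (the 5 genes, the mixing ceilings and the ratio of Slc17a7 to the GABA genes, by group), 3 held one by Dixon's criterion at the 95% level, where chance gives about 1 in 20, or 1.5. In the NAc risk-averse group the log2 ratio of Slc17a7 to the summed GABA genes was -9.95 in B2, while the other 8 libraries lay between -4.93 and -2.83. In the NAc risk-seeking group the same ratio was -9.17 in R1, while the others lay between -5.60 and -2.91. Slc17a7 was at 2.23 CPM in B2 and 3.72 CPM in R1. Gad1, Gad2 and Slc32a1 were at 718, 1147 and 338 CPM in B2, and at 734, 1063 and 353 CPM in R1. These 2 libraries had the lowest Gad1 of the 18. In the PFC risk-averse group Slc32a1 was at 89.5 CPM in B2, with the others between 98.6 and 107 CPM. The PFC library of B2 also had the lowest Slc17a7 (1949 CPM) and the highest Gad2 (301 CPM) of its group, and 29.1% of its reads fell in no gene. The part of that share in these values was not tested.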

How the results depend on the processing

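No region, preference or interaction call on the 5 genes changed under any alternative run: all 5 passed the region test and none passed a preference or interaction test. Some calls on correlations did change when B2 and R1 were left out of NAc. With the animal as a replicate block, over the rats with both regions, Slc17a7 was 4.36 and Slc17a6 1.28 in the region test (log2, edgeR adjusted p = 1.02e-07 and 2.63e-09). The region count was then 13046 genes and the interaction count 0. For the interaction, 1776 genes had an edgeR unadjusted p under 0.05 with the block and 387 without it. The lowest edgeR adjusted p of the interaction was 0.329 with the block and 0.981 without it. Counts over all genes moved more. For preference in PFC, 3521 genes became 334 with the unassigned share as a covariate, 0 with the ambiguous share (902 unadjusted), 1 with the not-unique share and 1 when B2, B3, R7 and BR9, the 4 animals with most unassigned reads, were left out. Leaving out single libraries gave 2264 (without B3) to 4227. In NAc the count of 0 became 566 with DESeq2 and ranged from 0 to 944 (without R9) over single libraries left out. The cause was not tested. The ceiling from region-restricted genes had a median of 1.27% (10 genes), 4.58% (50 genes) or 1.28% (at least 1 CPM) in NAc and 0.287%, 2.93% or 0% in PFC. Without B2 and R1 in NAc, Pearson's r turned from positive to negative for Gad1 and Slc32a1 with the 20-gene ceiling (r = -0.597 and -0.525) and with Slc17a7 (r = -0.608 and -0.605). In these cases rho was negative with and without them. Low counts limit the precision for Slc17a6, at 72 to 485 counts per library. They also limit it for Slc17a7 in the NAc libraries of B2, with 66 counts, and R1, with 115, while N3, the next lowest, had 1540.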
